A study of Mus musculus with 6 samples.

Results

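The RNA of the insulin-like growth factor (IGF) system was examined in mouse fibroblasts after knockdown of Aldoa, the gene of the glycolytic enzyme aldolase A. The group held 10 genes, taken by symbol: the ligands Igf1 and Igf2, the receptors Igf1r and Igf2r, and the binding proteins Igfbp2, Igfbp3, Igfbp4, Igfbp5, Igfbp6 and Igfbp7. Igfbp7 was selected on its measured values in this same comparison, being among the 10 genes with the highest log2 fold change, so its difference between the groups is given as a description with no test. Of the 10 genes, 7 had values among the 18001 genes of the expression table, and 6 of these (all but Igfbp7) were tested. For Igfbp2, Igfbp3 and Igfbp5 no value is given, and these genes were not analysed here. The comparison was between NIH/3T3 cells that received pooled siRNAs targeting Aldoa (siAldoa, written siALDOA in the labels) and cells that received pooled non-targeting siRNAs (siCtrl, written siCTR). NIH/3T3 is an immortalized fibroblast line from mouse embryos. Both groups were grown in DMEM with 10% FCS, so serum growth factors were present throughout, and were harvested after 48 h of siRNA treatment. Poly(A) RNA was sequenced from 3 libraries per group, and in this bulk RNA fewer cells of a type and less RNA per cell cannot be told apart.

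IGF1 and IGF2 are secreted peptides that signal through IGF1R, a receptor tyrosine kinase that recruits insulin receptor substrates and activates the PI3K and AKT pathway towards growth and survival. IGF2R, the cation-independent mannose 6-phosphate receptor, has no kinase: it carries IGF2 and newly made lysosomal enzymes to lysosomes, which removes IGF2 from the medium. The IGF binding proteins are secreted proteins that hold most of the extracellular IGF, prolong its life and limit or hand over its access to IGF1R, and proteases release it by cutting them. Fibroblasts are a known source of several of these binding proteins, and serum-grown NIH/3T3 cells depend on growth factor signalling to proliferate.

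The promoters of the 3 genes with the clearest differences described below, Igfbp7, Igf2r and Igfbp4, are shown because these RNAs differed between the groups in opposite directions. Each sequence is the 250 bases before the RefSeq transcription start on GRCm38.p6, written 5′ to 3′ on the gene's strand. Capitals mark matches to 3 motifs, searched on both strands. The first is the GC box with the letters GGGCGG. The TATA box was searched as TATAAA. For the E-box the letters were CACGTG, which read the same on both strands, and none of these motifs shares a base with another in these windows. The windows lie at chr5:77408046-77408295 on the minus strand for Igfbp7, at chr17:12769707-12769956 on the minus strand for Igf2r, and at chr11:99040994-99041243 on the plus strand for Igfbp4, and none overlaps an annotated exon.
Igfbp7: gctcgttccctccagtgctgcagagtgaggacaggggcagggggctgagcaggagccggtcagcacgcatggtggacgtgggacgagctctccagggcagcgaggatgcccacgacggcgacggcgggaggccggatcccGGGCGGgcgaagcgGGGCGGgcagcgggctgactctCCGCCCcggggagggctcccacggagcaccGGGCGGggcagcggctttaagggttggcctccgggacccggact
Igf2r: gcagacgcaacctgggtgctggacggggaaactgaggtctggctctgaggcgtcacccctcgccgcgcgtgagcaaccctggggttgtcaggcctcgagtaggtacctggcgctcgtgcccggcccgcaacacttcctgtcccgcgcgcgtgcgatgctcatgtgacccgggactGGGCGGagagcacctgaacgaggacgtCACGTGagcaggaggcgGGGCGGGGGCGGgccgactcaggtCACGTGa
Igfbp4: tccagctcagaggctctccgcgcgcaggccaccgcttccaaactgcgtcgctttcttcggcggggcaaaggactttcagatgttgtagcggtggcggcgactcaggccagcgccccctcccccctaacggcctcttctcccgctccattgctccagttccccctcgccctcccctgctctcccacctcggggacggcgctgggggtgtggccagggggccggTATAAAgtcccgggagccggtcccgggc
The Igfbp7 window held 4 GC boxes, whose first bases lay 110, 96, 74 and 44 bases before the start, and no TATA box or E-box. Its GC content was 74%, against a median of 52.4% over 32851 mouse promoter windows of the same length. The Igf2r window had a GC content of 69.2%, with 3 GC boxes (75, 31 and 25 bases before the start, the last pair side by side) and 2 E-boxes (48 and 7 bases before the start). In the Igfbp4 window, also 69.2% GC, there was 1 TATA box at 28 bases before the start and no GC box. Of all windows, 32.7% held the GC box, 12.4% the TATA box and 6.02% the E-box. One more motif, GTAAACA, a core bound by FOXO factors, was in 3.17% of all windows and in none of these 3. Among windows not shown, that of Igf1r, which had the same mean level in both groups, was 77.6% GC with 2 GC boxes. The Igfbp6 window was 49.6% GC, with no GC box and 1 TATA box at 148 bases before the start. Whether the motifs relate to the direction of a difference was not tested. A match describes the letters of the window and is not evidence of binding.

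The libraries held 3692341 to 3771129 reads, and 3 reads in a library corresponded to 0.786 to 0.822 CPM (the reads of a gene scaled to an effective library size). Aldoa itself was at 522, 536 and 545 CPM in the siCtrl libraries and at 62.9, 69.2 and 72.0 CPM in the siAldoa libraries, 12.7% of the control mean. Across all genes, an adjusted p under 0.05 from limma was reached by 10.4% of genes in the direction of higher and by 10.0% in the direction of lower expression in siAldoa (20.4% in either direction). The groups did not overlap, with every siAldoa library above or below every siCtrl library, for 16.7% of genes upwards and 17.1% downwards (33.8% in all). Replicate 3 stood somewhat apart in both groups: the chi-square per degree of freedom between libraries was 1.11 to 1.12 for replicate 1 against 2 and 1.97 to 3.03 for pairs with replicate 3. The values without replicate 3 are therefore given for the family. Counting error alone gives a chi-square per degree of freedom near 1, so replicates 1 and 2 of each group differed by little more than that. Of 14 fibroblast markers 12 had values, and 4 were higher (Pdgfrb, Pdgfra, Fn1 and Thy1) and 5 lower (Col1a1, Col1a2, Vim, Col5a1 and S100a4). Their summed level, which Col1a2, Vim and Col1a1 dominate, was 14139 to 14750 CPM in siCtrl and 11936 to 12660 CPM in siAldoa.

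Among the binding proteins, Igfbp7 was far higher in siAldoa, Igfbp4 was lower, and Igfbp6, the most abundant of them, was slightly lower without passing the test. Igfbp7 (ENSMUSG00000036256) encodes a secreted protein with a low affinity for IGFs, found in the matrix of vessels and stroma. It lies on the minus strand at chr5:77349240-77408041 of GRCm38 with 6 merged exons. Its RNA was measured at 12.9, 9.30 and 10.1 CPM in siCtrl replicates 1, 2 and 3, from 47, 34 and 38 reads. In siAldoa replicates 1, 2 and 3 it was at 36.2, 43.8 and 40.8 CPM, from 134, 164 and 156 reads. The lowest siAldoa library was thus well above the highest siCtrl library. The means were 10.7 ± 1.88 CPM (SD, n = 3) and 40.3 ± 3.87 CPM (SD, n = 3), a ratio of 3.75, and the log2 fold change of CPM + 1 was 1.82 (standard error, SE, 0.14). Without replicate 3 of both groups the log2 fold change was 1.77. In the order of all genes by log2 fold change Igfbp7 held place 6, between Arrdc4 (1.94) and Col20a1 (1.80). The 10th gene, at the edge of the choice, was Prl2c5 (1.66) and the 11th Slc6a12 (1.64).

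Igfbp7 shares 85 bases of exon with Polr2b, a subunit gene of RNA polymerase II on the opposite strand, so reads there could belong to either gene where strand was not used. Polr2b was at 140 ± 5.80 CPM in siCtrl and 138 ± 10.2 CPM in siAldoa (SD, n = 3), a log2 fold change of -0.02. Endothelial cells and pericytes are other known sources of Igfbp7. Of 14 endothelial markers 8 had values, their sum was 24.7 to 29.4 CPM in siCtrl and 23.8 to 27.3 CPM in siAldoa, and none passed the test, with log2 fold changes of -0.68 to 0.34. The most abundant of them, Cd93, had means of 8.92 and 11.2 CPM in siCtrl and siAldoa, Pecam1 of 2.62 and 1.33 CPM and Cdh5 of 1.54 and 0.715 CPM. Smooth muscle and pericyte markers (9 of 12 with values) summed to 574 to 612 CPM in siCtrl and 690 to 734 CPM in siAldoa, with 3 higher and 2 lower. The higher ones were Acta2 (log2 fold change 0.52), Tagln (0.59) and Smtn (0.23), and the lower ones the pericyte marker Cspg4 (-0.28, means of 165 and 136 CPM) and Mylk (-0.27). Pdgfrb, which pericytes share with fibroblasts, had means of 22.2 and 49.9 CPM (log2 fold change 1.14, limma adjusted p = 2.0e-08). The means of Myh11 (0.63 and 0.621 CPM) and Cnn1 (0.271 and 0.176 CPM) were below the level of 3 reads in both groups. Macrophage markers (8 of 13 with values) summed to 19.7 to 26.6 CPM in siCtrl and 26.4 to 30.1 CPM in siAldoa with 1 higher, Cd14, and adipocyte markers (2 of 11) to 0.548 to 1.59 CPM and 0.270 to 1.07 CPM. The part of these marker levels in the values of the IGF genes was not tested.

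Igfbp4 (ENSMUSG00000017493), a binding protein that mainly holds IGFs away from their receptor until the protease PAPP-A cuts it, lies on the plus strand at chr11:99041244-99054392 with 8 merged exons. It was at 26.0, 27.1 and 30.7 CPM in siCtrl (95, 99 and 116 reads). The siAldoa libraries were at 19.2, 17.1 and 20.9 CPM (71, 64 and 80 reads), all below the 3 siCtrl libraries. The mean decreased from 27.9 ± 2.45 to 19.1 ± 1.92 CPM (SD, n = 3), which is 68.3% of the control, with a log2 fold change of -0.53 (SE 0.12, 95% interval -0.78 to -0.28, limma adjusted p = 0.0027). The call did not depend on a single library, but with only 2 libraries per group it was lost, with a limma adjusted p of 0.065, 0.094 and 0.076 without replicate 1, 2 and 3 of both groups. A stretch of 201 bases of an Igfbp4 transcript aligned to a transcript of Cd9 with 90.05% identity, and Cd9 had a log2 fold change of 0.07.

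Igfbp6 (ENSMUSG00000023046) encodes the binding protein that prefers IGF2 over IGF1, and lies on the plus strand at chr15:102144362-102149511 with 4 merged exons. Its level was 213, 213 and 220 CPM in siCtrl, close together. In siAldoa it was 195, 179 and 210 CPM, again below every siCtrl library but with more spread. The means were 215 ± 3.85 and 195 ± 15.3 CPM (SD, n = 3), 90.5% of the control, and the log2 fold change was -0.15 (SE 0.053, 95% interval -0.26 to -0.04). With a limma adjusted p of 0.052 it was not past the threshold. It was past it without siAldoa replicate 3, the library nearest to the controls (log2 fold change -0.20, limma adjusted p = 0.020). The value without replicate 3 of both groups was -0.19.

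**Figure D1:**
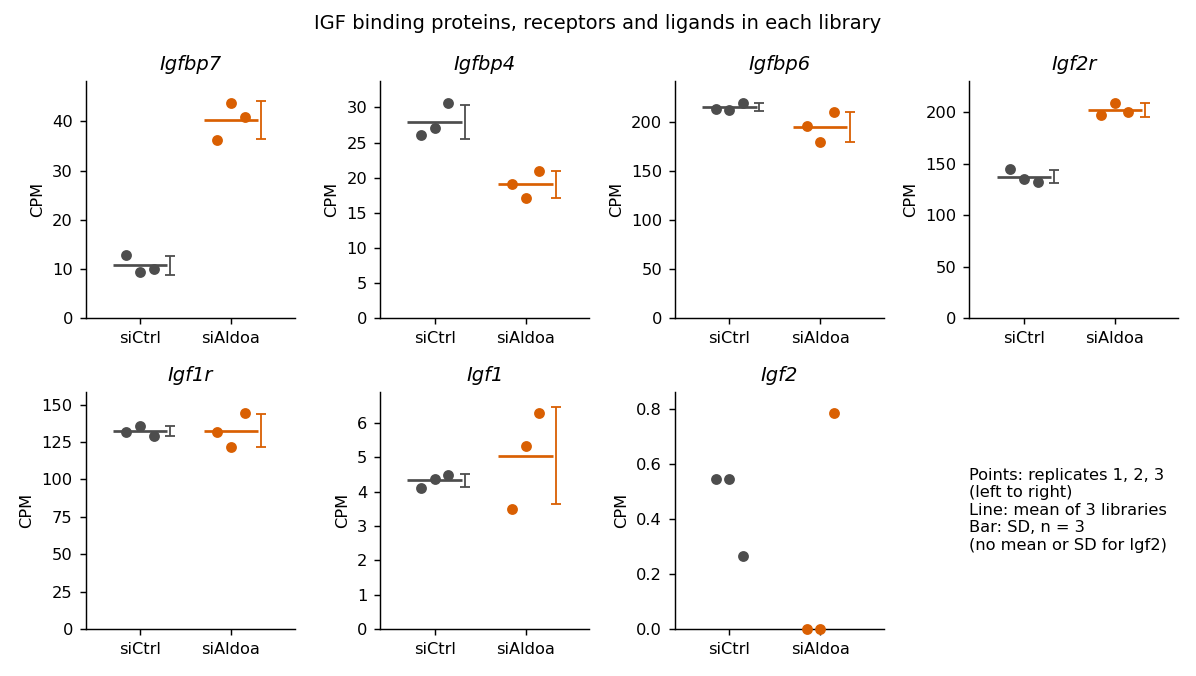
Level in CPM (vertical axis, from 0 in every panel) of the 7 IGF family genes with values in the 3 siCtrl (grey) and 3 siAldoa (orange) libraries, with the mean as a line and the SD as a bar. Igfbp7 and Igf2r lie higher and Igfbp4 and Igfbp6 lower in every siAldoa library, while the groups overlap for Igf1r and Igf1, and Igf2 has no mean because it is at the level of 0 to 3 reads.

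The summed RNA of the 3 measured binding proteins hardly differed between the groups, while its makeup did. The sum was 252, 249 and 260 CPM in siCtrl and 251, 240 and 272 CPM in siAldoa, with means of 254 ± 5.86 and 254 ± 16.0 CPM (SD, n = 3). Corrected for exon length (CPM per kb of merged exons), Igfbp7 made up 5.11%, 3.75% and 3.91% of the sum in siCtrl and 14.2%, 18.0% and 14.9% in siAldoa. Its mean share was 4.26 ± 0.74% and 15.7 ± 2.02% (SD, n = 3). Igfbp6 remained the main binding protein RNA in every library, at 92.7 ± 0.60% and 82.3 ± 1.94% of the sum per length. The share of Igfbp4 was 3.03 ± 0.22% and 2.03 ± 0.088%. The ratio of Igfbp7 to Igfbp4 per length was 1.42 ± 0.34 in siCtrl and 7.79 ± 1.36 in siAldoa. These shares contain Igfbp7 and are given with no test.

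**Figure D2:**
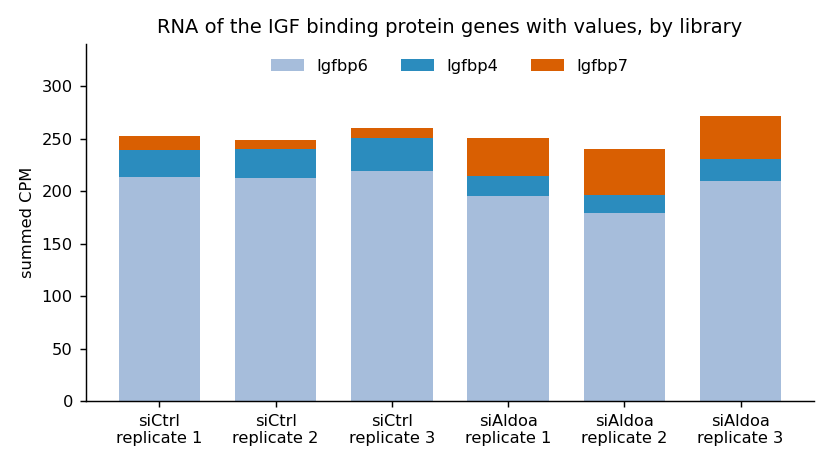
Summed CPM of Igfbp6, Igfbp4 and Igfbp7 (stacked bars from 0, not corrected for length) in each of the 6 libraries. The bars reach 240 to 272 CPM in both groups, while the Igfbp7 segment on top grows from 9.30 to 12.9 CPM in siCtrl to 36.2 to 43.8 CPM in siAldoa.

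Of the receptors, Igf2r was higher in siAldoa and Igf1r was at the same mean level in both groups. Igf2r (ENSMUSG00000023830) lies on the minus strand at chr17:12682406-12769664 with 49 merged exons and is an imprinted gene, expressed from the maternal copy in most mouse tissues. It was at 145, 136 and 132 CPM in siCtrl (529, 496 and 500 reads). In siAldoa it reached 197, 210 and 200 CPM (731, 784 and 764 reads), so that the groups were far apart relative to their spread. The mean rose from 138 ± 6.52 to 202 ± 6.43 CPM (SD, n = 3), 1.47 times the control, with a log2 fold change of 0.55 (SE 0.051, 95% interval 0.45 to 0.66, limma adjusted p = 2.8e-08). Under all 17 other settings that were run the log2 fold change was 0.52 to 0.61 and the adjusted p 6.3e-13 to 0.019 (limma, edgeR or DESeq2), the highest without replicate 3 of both groups. Airn, the antisense RNA that starts inside Igf2r and silences it on the paternal copy, shares no exon base with it and was at 33.4 ± 4.33 and 32.1 ± 2.38 CPM (SD, n = 3). Its log2 fold change was -0.05 (limma adjusted p = 0.80).

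Igf1r (ENSMUSG00000005533), the signalling receptor, lies on the plus strand at chr7:67952827-68233668 with 21 merged exons. Its RNA was measured at 132, 136 and 129 CPM in siCtrl. The siAldoa libraries were at 132, 122 and 144 CPM and lay on both sides of the controls. The means were 132 ± 3.31 and 133 ± 11.2 CPM (SD, n = 3), and the log2 fold change was 0.0026 with a 95% interval of -0.12 to 0.13 (limma adjusted p = 0.99). Without replicate 3 of both groups it was -0.076. Per kb of merged exons, Igf2r was 1.98, 1.80 and 1.85 times as abundant as Igf1r in siCtrl and 2.70, 3.10 and 2.50 times in siAldoa. The ratio rose in every library from a mean of 1.88 ± 0.094 to 2.77 ± 0.31 (SD, n = 3), and the two-sided exact permutation test gave p = 0.1, the smallest that 3 against 3 libraries allow. Its size depends on the length used. Per kb of the longest transcript, the means of Igf2r and Igf1r were 15.5 and 11.6 CPM in siCtrl and 22.8 and 11.6 CPM in siAldoa. Without a length correction the ratio was 1.04 ± 0.052 and 1.53 ± 0.17 (SD, n = 3).

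The ligands were expressed at a low level in both groups. Igf1 (ENSMUSG00000020053, chr10:87858265-87937042, plus strand, 8 merged exons) was at 4.11, 4.38 and 4.50 CPM in siCtrl (15, 16 and 17 reads) and at 3.51, 5.35 and 6.28 CPM in siAldoa (13, 20 and 24 reads). The groups overlapped, and the log2 fold change of 0.15 (SE 0.24, limma adjusted p = 0.73) had a 95% interval of -0.35 to 0.65. The value was 0.029 without replicate 3 of both groups, 0.0063 without siAldoa replicate 3 and 0.35 without siAldoa replicate 1. Differences within this interval remain compatible with these values, and the size detectable at this depth was not computed. Igf2 (ENSMUSG00000048583, chr7:142650766-142666816, minus strand) was at 2, 2 and 1 reads in siCtrl and at 0, 0 and 3 reads in siAldoa, so no fold is given. Its exons share 3596 bases with Gm49394 on the same strand, so even these reads may not be its own. No value is given here for Igfbp2, Igfbp3 and Igfbp5. In the genome Igfbp2 and Igfbp5 are neighbours (chr1:72824503-72852474 and chr1:72857932-72874884), and Igfbp3 lies at chr11:7206086-7213923.

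**Figure D3:**
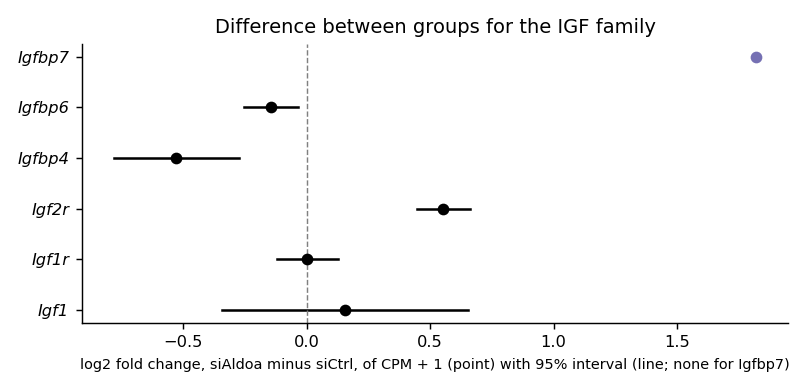
Log2 fold change of CPM + 1, siAldoa minus siCtrl (horizontal axis), for 6 IGF family genes, with the 95% interval from limma as a line except for Igfbp7. The intervals of Igf2r (0.45 to 0.66) and Igfbp4 (-0.78 to -0.28) lie on opposite sides of 0, that of Igfbp6 ends at -0.04, and those of Igf1r and Igf1 contain 0.

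Of the 6 tested genes, 1 passed the test upwards (Igf2r) and 1 downwards (Igfbp4), against 10.4% and 10.0% of all genes, and with a family this small no reading of the share is possible. Groups that did not overlap were found for Igf2r upwards and for Igfbp4 and Igfbp6 downwards, beside 16.7% and 17.1% of all genes.

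The order of the family by level was read per kb of merged exons. In siCtrl Igfbp6 led with 193 ± 3.46 CPM per kb (SD, n = 3), followed by Igf2r with 14.8 ± 0.70. Igfbp7 (8.89 ± 1.56) and Igf1r (7.87 ± 0.20) came next, and their ranges over libraries overlapped, so these neighbours did not differ beyond their spread. Igfbp4 (6.32 ± 0.55) and Igf1 (0.437 ± 0.020) followed. In siAldoa the order was Igfbp6 (175 ± 13.8), Igfbp7 (33.3 ± 3.20), Igf2r (21.7 ± 0.69), Igf1r (7.90 ± 0.67), Igfbp4 (4.32 ± 0.44) and Igf1 (0.509 ± 0.14), with no overlap between neighbours. Igfbp7 thus went from place 3 to place 2, above Igf2r, which had itself risen. With the longest transcript as the length, Igfbp7 was at place 4 in siCtrl, behind Igf1r, and again at place 2 in siAldoa.

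**Figure D4:**
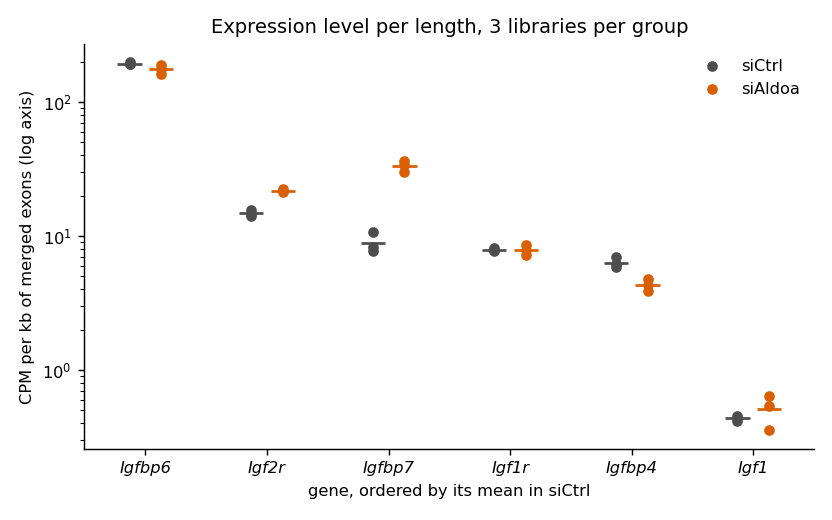
CPM per kb of merged exons (vertical log axis) of 6 IGF family genes, ordered by their mean in siCtrl, with the 3 libraries of each group as points and the mean as a line (siCtrl grey, siAldoa orange). Igfbp6 is the highest in both groups at 193 and 175 CPM per kb, and Igfbp7 moves from 8.89 to 33.3 CPM per kb and passes Igf2r.

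The genes whose pattern over the 6 libraries was most like that of Igfbp7 were found by the Euclidean distance between log2(CPM + 1) values, each centred on its mean, among 14652 genes with a mean of at least 1 CPM. They were Gxylt2 (distance 0.414), Gm12138 (0.471), Arrdc4 (0.524), Dusp1 (0.525) and Ptgs2 (0.557). Gxylt2, a xylosyltransferase of Notch, was at 34.7 to 36.9 CPM in siCtrl and 112 to 122 CPM in siAldoa. Arrdc4, an arrestin-related regulator of glucose uptake, was at 12.6 to 15.3 and 51.6 to 58.1 CPM. Dusp1, a phosphatase of MAP kinases, was at 30.4 to 34.4 and 87.4 to 100.02 CPM, and Ptgs2, the inducible cyclooxygenase, at 291 to 308 and 849 to 889 CPM. All these genes were higher in every siAldoa library, which the measure of likeness to Igfbp7 required.

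The other genes of the IGF pathway were described in 6 lists by role, with the median log2 fold change beside that of all genes, which was -0.0023. Each list's share of higher and lower genes stands against 10.4% higher and 10.0% lower among all genes. All genes include many with few reads, which can hardly pass the test, such as 1834 with under 12 reads in total. Most list genes were better expressed: 10 of 12 in the protease list and 32 of 34 in the PI3K list reached 10 CPM in a library. The lists were not set against genes of a like level, so a larger share is not read as an enrichment. In other proteins with an IGF binding protein domain (8 of 14 with values), 1 was higher and 1 lower, and the median was 0.09. Cyr61 and Ctgf, matricellular proteins that carry this domain at their N-terminus and regulate adhesion and matrix, moved in opposite directions. Cyr61 rose from 321, 319 and 312 CPM in siCtrl to 472, 435 and 471 CPM in siAldoa. Its log2 fold change was 0.53 (SE 0.041, limma adjusted p = 1.4e-09). Ctgf fell from 406, 414 and 408 CPM to 372, 359 and 366 CPM, a log2 fold change of -0.16 (SE 0.038, limma adjusted p = 0.0025). The Ctgf call was lost with quantile normalization (-0.10, limma adjusted p = 0.073).

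Of the proteases that cut IGF binding proteins and their inhibitors, 12 of 18 had values, 6 were higher (50%, against 10.4% of all genes) and 1 was lower (8.33%, against 10.0%), and the median log2 fold change was 0.20. With libraries left out, singly or by replicate number, the higher genes numbered 0 to 6, and without a mean-variance trend 2. Plat, tissue plasminogen activator, rose from 14.8, 18.3 and 14.6 CPM to 28.9, 25.4 and 24.6 CPM. This was a log2 fold change of 0.70 (SE 0.13, limma adjusted p = 0.00039). Plau, urokinase, rose from 50.7, 53.1 and 49.7 CPM to 68.3, 80.7 and 77.0 CPM, with a log2 fold change of 0.55 (SE 0.077, limma adjusted p = 1.0e-05). Ctsd, a lysosomal aspartic protease that reaches the lysosome with a mannose 6-phosphate tag, was at 54.6 ± 2.69 and 66.8 ± 4.02 CPM (SD, n = 3). Its log2 fold change was 0.29 (limma adjusted p = 0.0080), and the call was lost without siAldoa replicate 2 (0.066). The only lower gene, Adamts1, a secreted metalloprotease, had means of 140 and 119 CPM and a log2 fold change of -0.24 (limma adjusted p = 0.0091). That call was lost without siAldoa replicate 1 (0.096), siAldoa replicate 3 (0.097), siCtrl replicate 1 (0.068) or siCtrl replicate 2 (0.064), where 0 genes of this list were lower. Pappa, the gene of the PAPP-A protease that cuts IGFBP4, was chosen after its values were seen and was at 0 to 0.274 CPM in siCtrl and 0.262 to 1.60 CPM in siAldoa, too few reads for a comparison.

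In the list of the insulin receptor family and the adaptors that bind activated IGF and insulin receptors, 19 of 24 genes had values. There were 6 higher (31.6%) and 2 lower (10.5%) genes, and the median difference on the log2 scale was 0.07. Without siAldoa replicate 2 the higher genes numbered 3, and leaving out any of the 6 libraries left 1 lower gene. Irs1 and Irs2, the insulin receptor substrates that act as docking proteins between IGF1R and PI3K, were higher. Irs1 was at 18.9, 14.5 and 11.4 CPM in siCtrl and 21.6, 24.6 and 22.0 CPM in siAldoa. Its log2 fold change was 0.60 (SE 0.15, limma adjusted p = 0.0067), and the call was lost without siAldoa replicate 2 (0.072) or siCtrl replicate 3 (0.070). Irs2, which with Grb10 and Insr was chosen after its values were seen, rose from 79.4, 86.4 and 84.1 CPM to 112, 110 and 111 CPM, a log2 fold change of 0.41 (SE 0.060, limma adjusted p = 1.9e-05).

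The related adaptors Grb14 and Grb10, which bind the activated receptors and restrain their kinase, went in opposite directions. Grb14 rose from 35.3, 38.8 and 33.1 CPM to 57.5, 49.4 and 51.6 CPM, a log2 fold change of 0.55 (SE 0.091, limma adjusted p = 7.9e-05). Grb10, an imprinted gene, fell from 708, 715 and 707 CPM to 581, 589 and 573 CPM, a log2 fold change of -0.29 (SE 0.033, limma adjusted p = 6.3e-07). The other lower gene, Grb2, the adaptor that links receptors to RAS, was chosen after its values were seen, with means of 97.6 and 85.9 CPM (limma adjusted p = 0.044), and leaving out any one library ended the call (0.056 to 0.20), as did the replicate block (0.061). Sh2b1 and Sh2b2, adaptors that promote receptor kinase activity, were both higher. Sh2b1 had means of 42.5 ± 3.62 and 58.9 ± 0.95 CPM (SD, n = 3, log2 fold change 0.46, limma adjusted p = 0.00019). Sh2b2 had means of 12.4 ± 1.77 and 18.4 ± 1.89 CPM (SD, n = 3, log2 fold change 0.53, limma adjusted p = 0.015), and its call was lost without siAldoa replicate 2 (0.056), siAldoa replicate 3 (0.10) or siCtrl replicate 2 (0.088). The insulin receptor Insr was at 26.4 ± 2.08 and 31.5 ± 2.67 CPM (SD, n = 3) and did not pass the test (log2 fold change 0.25, limma adjusted p = 0.12).

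Downstream, all 34 listed genes of the PI3K, AKT, TOR and FOXO pathway had values, with 11 higher (32.4%), 5 lower (14.7%) and a median log2 fold change of 0.10. Leaving out single libraries lowered these counts: 6 genes were higher without siCtrl replicate 3, siAldoa replicate 2 or siAldoa replicate 3, and 7 without siCtrl replicate 2 or siAldoa replicate 1. The lower genes were 3 without siCtrl replicate 2, siCtrl replicate 3, siAldoa replicate 1 or siAldoa replicate 3. Inppl1, the lipid phosphatase SHIP2 that removes the PI3K product, rose from 134, 130 and 131 CPM to 184, 187 and 198 CPM (log2 fold change 0.52, SE 0.050, limma adjusted p = 5.1e-08). Foxo3, a transcription factor that AKT holds out of the nucleus, rose from 60.0, 59.9 and 55.6 CPM to 80.2, 82.1 and 81.2 CPM, with a log2 fold change of 0.47 (SE 0.068, limma adjusted p = 1.8e-05). Pik3r3, a regulatory subunit of PI3K, had means of 34.2 and 45.8 CPM (log2 fold change 0.41, limma adjusted p = 0.0027), and the call was lost without replicate 1, 2 or 3 of both groups (0.055, 0.14 and 0.077) and without a mean-variance trend (0.061).

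Among the lower genes of the pathway were Pik3cb, Eif4ebp1, Akt1 and Rheb. Pik3cb was named by the rule for the lists, which itself used these values. Eif4ebp1, Akt1 and Rheb were chosen outside that rule, after their values were seen. Pik3cb, a catalytic subunit of PI3K, fell from 97.2, 101 and 102 CPM to 72.6, 69.0 and 74.1 CPM, a log2 fold change of -0.47 (SE 0.063, limma adjusted p = 5.4e-06). Eif4ebp1, a repressor of translation that TOR inactivates, fell from 204 ± 6.02 to 161 ± 5.64 CPM (SD, n = 3, log2 fold change -0.34, limma adjusted p = 1.5e-05). Akt1, the main AKT kinase of fibroblasts, had means of 337 and 298 CPM (log2 fold change -0.18, limma adjusted p = 0.0037), and its call was lost with quantile normalization (0.061). Rheb, the GTPase that activates TOR, had a limma adjusted p of 0.043 and lost the call without 5 of the 6 libraries in turn. The limma adjusted p was then 0.0501 to 0.13, and the call was kept only without siCtrl replicate 1. With the replicate block it was lost as well (0.062).

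Of the genes that load IGF2R with cargo or move it between the Golgi, endosomes and surface, all 19 had values, with 7 higher (36.8%), 1 lower (5.26%) and a median log2 fold change of 0.16. This count rested on single libraries: it was 0 higher genes without siCtrl replicate 3, and 3, 1 and 2 without siAldoa replicate 1, 2 and 3. Gnptg, a subunit of the enzyme that adds the mannose 6-phosphate tag, was at 10.4, 10.9 and 9.52 CPM in siCtrl and 14.3, 16.3 and 15.4 CPM in siAldoa (log2 fold change 0.53, limma adjusted p = 0.017). Without siAldoa replicate 2, siAldoa replicate 3 or siCtrl replicate 3 its adjusted p was 0.079, 0.060 and 0.063. Nagpa, which uncovers the tag, was at 21.6, 16.4 and 15.9 CPM and at 26.4, 23.0 and 25.4 CPM (log2 fold change 0.46, limma adjusted p = 0.016), and the call was lost without siAldoa replicate 1 (0.094), siAldoa replicate 3 (0.081), siCtrl replicate 2 (0.088) or siCtrl replicate 3 (0.097). Gga2, an adaptor that sorts mannose 6-phosphate receptors at the Golgi, had means of 34.2 and 44.1 CPM (log2 fold change 0.36, limma adjusted p = 0.012), and the call was lost without siAldoa replicate 2 (0.054), siAldoa replicate 3 (0.11), siCtrl replicate 2 (0.10) or siCtrl replicate 3 (0.076). Plaur, the urokinase receptor, which also binds IGF2R, was chosen after its values were seen, with means of 107 and 128 CPM (log2 fold change 0.26, limma adjusted p = 0.0043), and lost the call without siAldoa replicate 2 (0.053) or siCtrl replicate 3 (0.051). The lower gene was Ap1s1, a subunit of the AP-1 clathrin adaptor, at 232, 221 and 238 CPM in siCtrl and 160, 199 and 201 CPM in siAldoa (log2 fold change -0.31, SE 0.065, limma adjusted p = 0.0011). Without siAldoa replicate 1 its log2 fold change was -0.20 (limma adjusted p = 0.017), and the call was lost without replicate 1, 2 or 3 of both groups (0.085, 0.082 and 0.15) and without a mean-variance trend (0.14). M6pr, the smaller mannose 6-phosphate receptor, which was chosen after its values were seen, was at 151 ± 12.8 and 146 ± 4.31 CPM (SD, n = 3, log2 fold change -0.04, limma adjusted p = 0.71).

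Of the genes that regulate Igf1r or Igf2 RNA or belong to the imprinted network around Igf2 and H19, 9 of 16 had values, with 2 higher (22.2%), 1 lower (11.1%) and a median log2 fold change of 0.02. Plagl1, an imprinted zinc finger factor, had means of 37.4 ± 1.52 and 46.1 ± 3.78 CPM (SD, n = 3, log2 fold change 0.29, limma adjusted p = 0.022), and the call was lost without siAldoa replicate 2 (0.12), siAldoa replicate 3 (0.098), siCtrl replicate 1 (0.076) or siCtrl replicate 2 (0.083). Igf2bp2, which binds Igf2 and other RNAs, had means of 162 ± 4.63 and 188 ± 11.3 CPM (SD, n = 3, log2 fold change 0.21, limma adjusted p = 0.0047), and its call was lost without siAldoa replicate 2 (0.056), where 0 genes of this list were higher. Slc38a4, an imprinted amino acid transporter, fell from 183, 174 and 182 CPM to 159, 153 and 141 CPM (log2 fold change -0.25, SE 0.053, limma adjusted p = 0.0013).

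**Figure D5:**
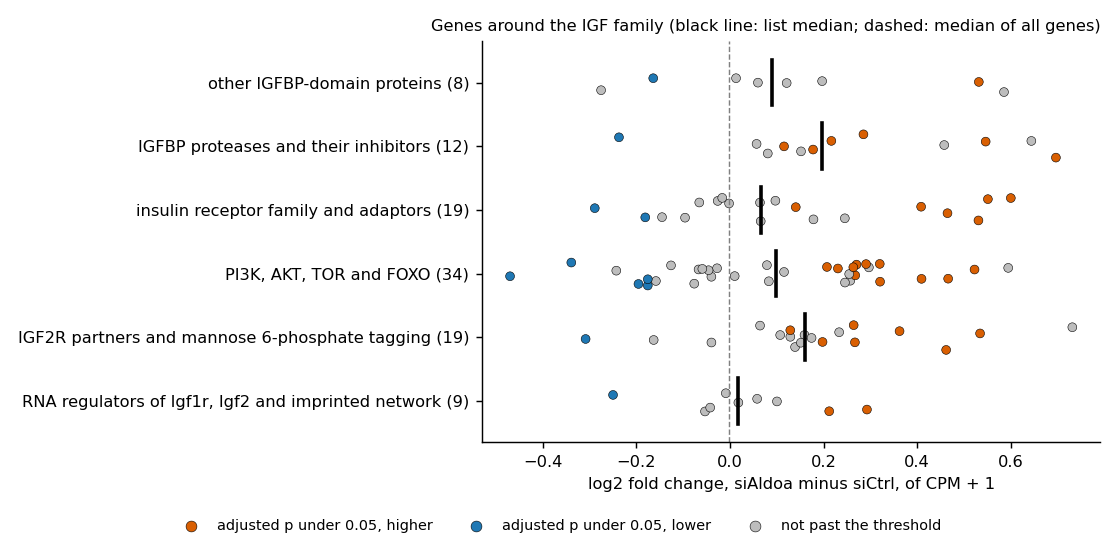
Log2 fold change of CPM + 1, siAldoa minus siCtrl (horizontal axis), of each gene in the 6 lists around the IGF family, with the number of genes with values in brackets, coloured by whether the limma adjusted p is under 0.05 (orange higher, blue lower, grey neither). The list medians (black lines) run from 0.02 to 0.20, and each list holds genes on both sides of the median of all genes (dashed line).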

How the data were processed

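RNA of 6 NIH/3T3 libraries was sequenced with a directional poly(A) kit. Per the paper's methods, the authors aligned reads to mm10 with Bowtie2 (2.2.7, as in the submitters' processing notes), drew equal numbers of them per sample, counted these per gene with GenomicAlignments, dropped genes under 12 reads (the table held 1834 such genes, so a missing gene sets no limit) and deposited CPM of an effective library size. The annotation and the use of strand are not given in the sources used here. ERCC RNA was added in lysis buffer for replicate 1 and after extraction for replicates 2 and 3. The deposited comparison (log2 fold changes, p-values) was not used. Reads were recovered from the CPM (100% whole within 0.001); counts carry no molecular identifiers, so read numbers give counting error only. Groups were compared with limma (3.58.1, R 4.3.3) on log2(CPM + 1) (trended variance, two-sided, Benjamini-Hochberg over 18001 genes), which understates changes of low genes; standard errors are on this scale. The p-values measure the spread between these libraries, which the study calls biological replicates. Replicates 1 and 2 of each group differed by little more than counting error. edgeR (4.0.16, quasi-likelihood) on the recovered reads called 1920 genes higher and 1866 lower, against 1867 and 1809 with limma; DESeq2 was 1.42.0. On simulated reads of 18001 genes for this comparison, 200 of them with a mean of at least 10 CPM changed by a log2 fold of 1, limma recovered 97%. Genes as low as Igf1 were not covered, nor were smaller folds such as those of the tested family genes. Lengths and overlaps came from GENCODE vM21 (17932 identifiers matched), similarity from blastn (2.17.0; at least 90% over 200 bases) and promoters from RefSeq (all 7 genes matched). Members, lists and motifs were chosen with earlier results of these data known. Named were the 10 members, Aldoa, up to 4 called, non-overlapping genes of largest change per list, and the 5 most like Igfbp7. Some called list genes are not reported here.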

Additional observations from a re-analysis of the deposited data

How the results depend on the processing

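Igf2r was higher and past the threshold under all 17 alternatives, and Igfbp4 was lower under all of them and past it in 14. Among these, scaling factors recomputed on the recovered reads (TMM) gave back the counts and the median of the main fit. That setting is thus no separate alternative, and its values are among those that did not move. Without a mean-variance trend 824 genes were higher and 616 lower, and in the pathway lists 9 and 3; of the genes named, Adamts1, Akt1, Ap1s1, Ctgf, Ctsd, Gga2, Grb2, Igf2bp2, Irs1, Nagpa, Pik3r3, Plagl1, Plaur, Rheb, Sh2b2 and Slc38a4 lost their call. With DESeq2 1066 genes were higher and 1117 lower, and 17 list genes were higher. Ctsd, Gga2, Gnptg, Grb2, Nagpa, Plagl1, Rheb and Sh2b2 lost their call with it. The lower members numbered 2, with Igfbp6, after the filter on low values and with edgeR. Igfbp7 was at place 4 in siCtrl with the longest transcript as length. The log2 fold change of Igf1r turned to -0.014, -0.059 and -0.076 without siCtrl replicate 3, siAldoa replicate 3 and replicate 3 of both groups, and its highest value was 0.081. M6pr, near 0, ranged from -0.089 to 0.052 with libraries left out, above 0 without siCtrl replicate 3 (0.029) and without replicate 3 of both groups. The cause was not tested. With libraries left out, the counts ranged from 494 to 1464 genes higher and 520 to 1371 lower, 1 member higher and 0 to 2 lower, and 5 to 28 list genes higher and 4 to 9 lower (33 and 11 with all libraries), lowest with both libraries of a replicate number left out, where fewer libraries enter. There Akt1, Ctgf, Plat, Plau, Grb14, Pik3r3, Ap1s1 and Slc38a4, kept without any single library, each lost the call without at least 1 replicate number. Igfbp7 ranged from 1.67 to 2.02, and its share of the summed binding protein CPM from 3.80% to 4.48% in siCtrl and 14.7% to 16.7% in siAldoa. Of all values under alternatives, 33 of the main results moved and 94 did not. For single genes and lists 628 stayed, 119 fell short of the threshold, 3 passed it, 76 counts moved and 5 signs turned. Recomputed scalings moved the median of all genes by under 0.1.

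The replicate numbers were not taken as pairs, since the deviations of same-numbered libraries correlated at 0.030, 0.014 and 0.134 over 10059 genes. Only the libraries of replicate 3 correlated best with each other, and replicate 1 also differed from the others in when ERCC RNA was added. With the replicate block 1611 genes were higher and 1559 lower, 3151 of these 3170 being among the 3676 genes called without it. It ended the calls of Grb2 (0.061) and Rheb (0.062) and of no other gene named from the lists, and changed no call of a family member, with a limma adjusted p of 3.7e-05 for Igf2r and 0.0080 for Igfbp4. Depth limits Igf1, at 13 to 24 reads per library, and Igf2, at 0 to 3.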
